A study of Mus musculus with 12 samples.

Results

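Bone morphogenetic protein 2 (BMP2) at 50 ng/ml was compared with BMP2 at 10 ng/ml in 8 of the 12 RNA-seq libraries of the series, 4 at each dose. They were chosen by their labelled treatment and matched as 4 pairs by day of culture (day 6 or day 1) and by GSK126 (5 µM or none). The cells were MC3T3 sc4, 1 subclone of a mouse calvarial pre-osteoblast line labelled as C57BL/6, at passage 12, so the data describe a single clone. The groups were BMP2 at 50 ng/ml with GSK126 and at 50 ng/ml without it, against BMP2 at 10 ng/ml with GSK126 and at 10 ng/ml without it, on day 6 and again on day 1. All of them, at both doses, were grown in osteogenic medium with ascorbic acid and β-glycerol phosphate, and GSK126 inhibits EZH2, the histone H3 methyltransferase of Polycomb repressive complex 2. The 4 libraries without BMP2 (vehicle or GSK126 alone) are not part of the comparison of doses. They are given as background levels and enter 1 alternative fit. The comparison asks which gene programmes scale with the dose of BMP2, and whether they do so differently on day 6 and day 1.

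BMP2 binds receptor serine/threonine kinases at the cell surface, which phosphorylate SMAD1, SMAD5 and SMAD9. These proteins join SMAD4, enter the nucleus and switch on target genes, among them the Id genes and a set of inhibitors (Smad6, Smad7, noggin) that restrain the same pathway. In pre-osteoblasts the pathway favours osteoblast differentiation through the transcription factors RUNX2 and osterix, after which cells divide less and lay down a type I collagen matrix that mineralises.

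The 8 libraries held 80015906 to 113744802 gene counts, and 11876 genes with at least 1 CPM (a count scaled to the library's total) in at least 2 of them were tested. Each condition had 1 library, so the pairs with and without GSK126 stood in for replicates, and a dose effect is the mean of the 2 pairs of a day. Gene levels are CPM of TMM-scaled library sizes, and summed levels and the level of 3 read pairs are CPM of the unscaled total. After each log2 fold change (50 over 10 ng/ml), ± gives a standard error derived from its F test. It is the size of the change divided by the square root of F. Genes passed at an adjusted p of 0.05 (edgeR quasi-likelihood, Benjamini-Hochberg). Nothing in the labels ties the libraries to separate cultures, so the spread behind each p-value is that between these libraries and may be technical. In a multidimensional scaling the first axis, with 81.1% of the variance, separated the days. The second (9.3%) placed 50 above 10 ng/ml within each pair of both days. Libraries of day 6 lay at 1.16 for 50 ng/ml and 0.17 for 10 ng/ml with GSK126, and at -0.14 for 50 ng/ml and -1.47 for 10 ng/ml without it. Both with GSK126 thus lay above both without it on day 6. The gap was smaller on day 1, at 0.15 against 0 with GSK126 and 0.15 against -0.01 without it. The ribosomal RNA precursor Rn45s took 13.1% of counts at 50 ng/ml and 13.49% at 10 ng/ml on day 6 with GSK126, but 21.66% at 50 ng/ml and 17.16% at 10 ng/ml without it. On day 1 it took 9.3% to 10.9%. Of the markers of the osteoblast lineage, Runx2, Sp7, Alpl, Col1a1, Ibsp and Dmp1 lay above the level of 3 read pairs in all 8 libraries. Bglap stood at 0.06 to 0.22 CPM on day 1, near that level (0.0527 to 0.0695 CPM), and at 30.6 to 548 CPM on day 6.

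On day 6 the higher dose moved many genes. In the fit of all 8 libraries 1527 genes (12.9%) passed, 712 higher at 50 ng/ml (6.0%) and 815 lower (6.86%). Of these, 1526 moved the same way in both pairs. That agreement is largely fixed by the test, whose spread includes the difference between the 2 pairs, so it adds no support. Among the 1527 genes the median size was 0.48 on the log2 scale, and 247 changed at least 2-fold. The spread in that fit is shared by both days. A fit of the 4 libraries of day 6 alone, which has 1 residual degree of freedom, called 510 genes (4.29%), 245 higher (2.06%) and 265 lower (2.23%), of which 504 had also passed in the fit of 8. The shares of each fit are the background for the day 6 counts of list members given below. Without any 1 of the 4 libraries of day 1 the fit of all remaining libraries called 454 to 458 genes. Without any 1 of the 4 libraries of day 6 it called 4037 to 5049, because the spread then comes from the day 1 pairs only. Scaling by library size alone moved the median gene by -0.152 and gave 428 higher and 2080 lower. In bulk RNA, a change in the share of cells of one kind and a change in RNA per cell cannot be told apart.

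BMP-SMAD target genes rose with dose on day 6. Of 18 tested BMP-SMAD target genes, 9 rose at 50 ng/ml on day 6 and 2 fell, with a median log2 change of 0.79 against -0.01 over all genes in the fit of day 6 alone, which also called 9 and 2. Id1, an inhibitor of helix-loop-helix transcription factors and a direct SMAD target, stood at 6.71 CPM with GSK126 and 4.18 CPM without it at 50 ng/ml, against 1.71 CPM with GSK126 and 0.89 CPM without it at 10 ng/ml (2.08 ± 0.12, adjusted p = 0.00393). Its relative Id2 stood at 20.4 CPM with GSK126 and 14.1 CPM without it at 50 ng/ml, against 6.14 and 3.44 CPM at 10 ng/ml (1.87 ± 0.09). Both doses' values lay well apart for the 2 genes in either pair. Hey1, a Notch and BMP target that encodes a transcriptional repressor, was counted in 399 read pairs with GSK126 and 210 without it at 50 ng/ml, against 34 with GSK126 and 25 without it at 10 ng/ml (3.57 ± 0.21). Smad6, the inhibitory SMAD most closely tied to BMP signalling, stood at 61.1 CPM with GSK126 and 44.6 CPM without it at 50 ng/ml, against 20.5 and 13.3 CPM at 10 ng/ml (1.66 ± 0.11). Other targets that passed were the inhibitory Smad7 (0.94 ± 0.10), the signal transducer Smad9 (1.25 ± 0.06), and the transcription regulator genes Atoh8 (1.69 ± 0.08), Msx2 (1.29 ± 0.12) and Id3 (1.54 ± 0.24). Bambi, a decoy receptor gene, missed the threshold (0.61 ± 0.14, adjusted p = 0.0524). Id4 fell, at 1.90 CPM with GSK126 and 1.88 CPM without it at 50 ng/ml, against 3.81 and 4.04 CPM at 10 ng/ml (-1.05 ± 0.09).

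Because these targets moved together, 250 bases upstream of the annotated start of 3 of them (Id2, Smad6 and Smad9) are shown beside those of Lgr6, the named gene with the largest rise, from RefSeq on GRCm38.p6 and in the direction of transcription. Capitals mark the SMAD1/5/9-type motifs GGCGCC and GGAGCC, searched on both strands (GGAGCC reads GGCTCC on the other). The windows are chr12:25096093-25096342 (minus strand) for Id2, chr9:64022060-64022309 (minus) for Smad6, chr3:54755332-54755581 (plus) for Smad9 and chr1:135105277-135105526 (minus) for Lgr6.
Id2: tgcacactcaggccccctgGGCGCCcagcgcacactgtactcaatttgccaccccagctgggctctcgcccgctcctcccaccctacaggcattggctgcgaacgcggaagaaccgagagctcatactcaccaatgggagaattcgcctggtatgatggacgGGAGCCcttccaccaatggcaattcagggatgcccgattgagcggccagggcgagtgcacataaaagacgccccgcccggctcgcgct
Smad6: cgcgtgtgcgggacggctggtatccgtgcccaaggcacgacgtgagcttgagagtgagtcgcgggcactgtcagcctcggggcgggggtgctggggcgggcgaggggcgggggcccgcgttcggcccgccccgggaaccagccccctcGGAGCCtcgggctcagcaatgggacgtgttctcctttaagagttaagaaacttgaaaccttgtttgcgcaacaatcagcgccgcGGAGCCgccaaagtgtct
Smad9: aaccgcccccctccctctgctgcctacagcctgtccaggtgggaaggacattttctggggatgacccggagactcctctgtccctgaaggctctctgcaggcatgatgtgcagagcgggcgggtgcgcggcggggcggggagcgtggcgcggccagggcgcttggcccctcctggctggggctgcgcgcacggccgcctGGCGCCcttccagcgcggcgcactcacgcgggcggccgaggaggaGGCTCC
Lgr6: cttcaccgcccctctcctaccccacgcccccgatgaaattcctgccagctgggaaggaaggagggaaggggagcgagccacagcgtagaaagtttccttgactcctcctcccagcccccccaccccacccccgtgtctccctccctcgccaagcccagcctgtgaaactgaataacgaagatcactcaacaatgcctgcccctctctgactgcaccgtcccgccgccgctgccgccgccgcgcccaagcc
Id2, Smad6 and Smad9 held 2 matches each and Lgr6 held 0. Of the other targets that rose and have a window, Msx2 held 2 matches, Id3 1 and Atoh8 0. Id4, Gata3 and Ski, which were not among those that rose, held 2 each. Either motif was found in 11 of 14 RefSeq promoter windows (78.6%) of the 13 BMP-SMAD target genes that have one in the table used, in 45.3% of the 10944 windows of tested genes and in 31.7% of all 32851 windows. Of the windows of targets that rose on day 6, 5 of 6 (83.3%) held a match, against 6 of 8 (75.0%) of those of targets that did not rise, Id4, which fell, among them. A match is a stretch of letters and was not shown here to be bound.

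Of 13 tested genes of ligands, receptors and signal transducers of the pathway 1 rose and 2 fell on day 6, where 12.9% of all genes passed, or 1 and 1 in the fit of day 6 alone. Bmp1, which encodes a procollagen and chordin protease rather than a BMP ligand, rose (0.60 ± 0.08). Gdf6, a BMP family ligand gene, fell by 2.56 on the log2 scale, at 2.32 CPM with GSK126 and 1.51 CPM without it at 50 ng/ml, against 8.83 and 14.6 CPM at 10 ng/ml. Smad1 fell by 0.39 on the log2 scale (adjusted p = 0.0344, and adjusted p = 0.068 in the fit of day 6 alone).

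Secreted BMP antagonists split. Of 13 tested, 2 rose and 5 fell on day 6, or 2 and 3 in the fit of day 6 alone. Grem1, a BMP-binding antagonist gene, fell, at 20.6 CPM with GSK126 and 8.49 CPM without it at 50 ng/ml, against 40.7 and 44.6 CPM at 10 ng/ml (-1.65 ± 0.32, adjusted p = 0.037). Chrd, the gene of chordin, fell by 0.86 ± 0.08 and Nbl1 rose by 0.67 ± 0.08. Noggin's gene Nog was higher at 50 ng/ml with GSK126 (5.70 against 2.51 CPM) and lower without it (0.62 against 1.99 CPM), so its mean of 0.03 ± 0.67 describes neither pair.

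**Figure D1:**
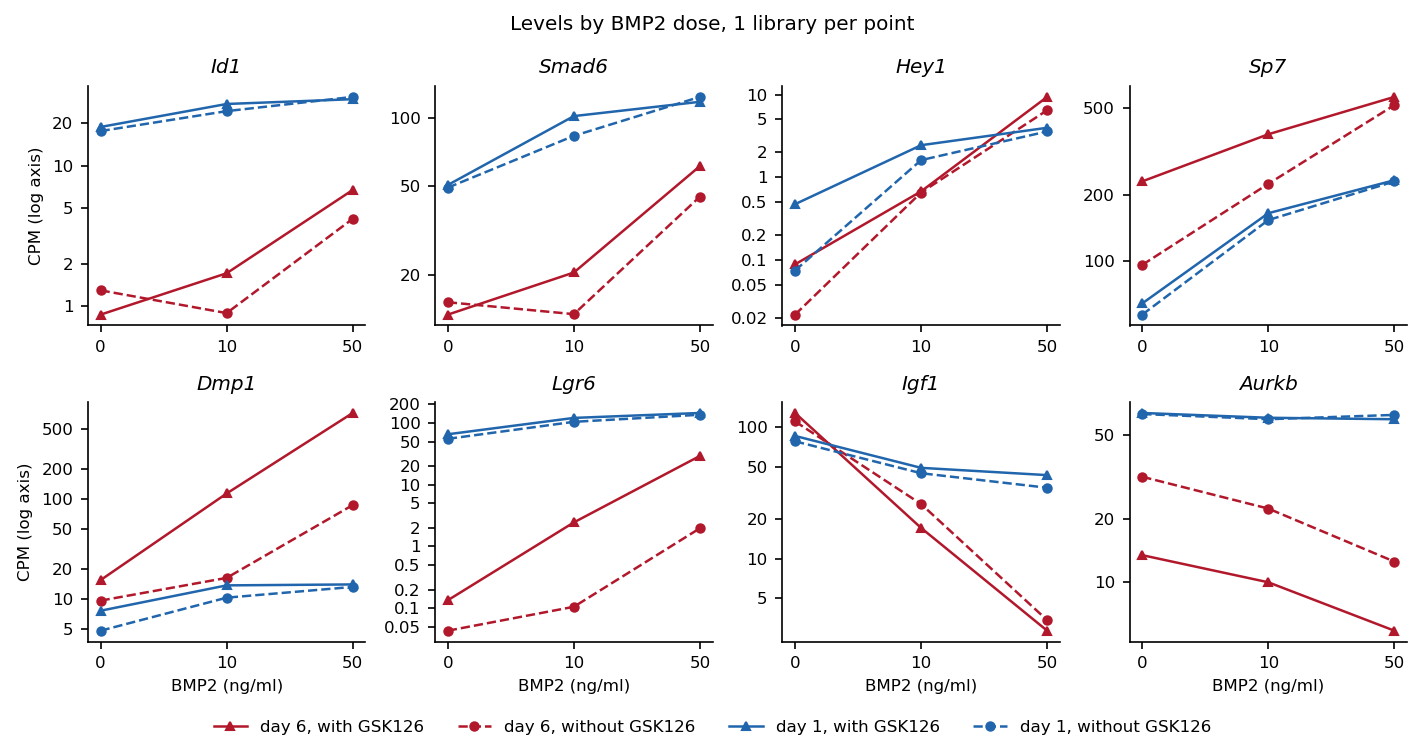
CPM (log axis) of 8 genes by BMP2 dose in ng/ml, 1 library per point, red for day 6 and blue for day 1, triangles and solid lines with GSK126, circles and dashed lines without it. On day 6 the step between 10 and 50 ng/ml is steep for Id1, Smad6, Hey1, Dmp1 and Lgr6 (upward) and for Igf1 (downward), and on day 1 the lines are flatter over the same step.

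With the libraries without BMP2 set beside them as a description, the summed level of the BMP-SMAD target list on day 6 was 297, 307 and 449 CPM at 0, 10 and 50 ng/ml with GSK126, and 338, 266 and 352 CPM without it. On day 1 the sum was 827, 1003 and 1067 CPM with GSK126, and 771, 914 and 1077 CPM without it. The sum at 50 ng/ml was the highest of each series, and the sum at 10 ng/ml on day 6 without GSK126 was below that at 0. Id2 stood at 3.66, 6.14 and 20.4 CPM on day 6 with GSK126, and at 6.11, 3.44 and 14.1 CPM without it. On day 1 Id2 stood at 29.8, 48.4 and 59.7 CPM with GSK126, and at 28.0, 48.0 and 57.7 CPM without it. These steps share the 10 ng/ml libraries and were not tested against each other.

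Bone matrix and mineralization genes rose with dose on day 6. Of 21 tested, 9 rose and 0 fell (median 0.71), or 5 and 0 in the fit of day 6 alone (Dmp1, Phex, Bglap, Spp1 and Ank). Dmp1 (chr5:104202617-104214102 in mm10), a matrix phosphoprotein gene of late osteoblasts and osteocytes, stood at 732 CPM with GSK126 and 87.1 CPM without it at 50 ng/ml, against 114 and 16.2 CPM at 10 ng/ml (2.56 ± 0.11, adjusted p = 0.00344). Phex, which encodes an endopeptidase of phosphate regulation, stood at 99.9 CPM with GSK126 and 18.9 CPM without it at 50 ng/ml, against 36.7 and 2.62 CPM at 10 ng/ml (2.03 ± 0.33). In both genes the 50 ng/ml library without GSK126 lay below the 10 ng/ml library with it, so the doses overlap unless matched. Bglap, one of the near-identical osteocalcin genes between which reads may be split, stood at 548 CPM with GSK126 and 187 CPM without it at 50 ng/ml, against 227 and 30.6 CPM at 10 ng/ml (1.94 ± 0.33, adjusted p = 0.0273). Spp1, osteopontin, stood at 8114 CPM with GSK126 and 666 CPM without it at 50 ng/ml, against 2724 and 364 CPM at 10 ng/ml (1.23 ± 0.17). For Bglap and Spp1 too the 50 ng/ml library without GSK126 lay below the 10 ng/ml library with it. Ank, a pyrophosphate transporter gene, rose by 0.84 ± 0.14.

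The type I collagen genes were smaller in fold and large in level. Col1a1 stood at 75087 CPM with GSK126 and 70966 CPM without it at 50 ng/ml, against 47026 and 37243 CPM at 10 ng/ml (0.81 ± 0.09), and Col1a2 rose by 0.79 ± 0.10. Both passed in the fit of 8 libraries and missed the threshold in the fit of day 6 alone (adjusted p = 0.0606 and 0.0647). Alpl, tissue-nonspecific alkaline phosphatase, did likewise (0.47 ± 0.09, adjusted p = 0.0359, and adjusted p = 0.065 alone). Ibsp, bone sialoprotein, had 4388 CPM with GSK126 and 2408 CPM without it at 50 ng/ml, against 3699 and 1074 CPM at 10 ng/ml, and did not pass (0.71 ± 0.22, adjusted p = 0.0945). Phospho1 and Smpd3, enzymes that release phosphate or its precursors at the start of mineralization, differed in sign between pairs: Phospho1 stood at 124 against 141 CPM for 50 against 10 ng/ml with GSK126 and at 146 against 66.3 CPM without it, and Smpd3 at 589.9 against 719.8 CPM with GSK126 and at 701 against 363 CPM without it. Over all 22 tested collagen genes 3 rose and 4 fell (0 and 3 alone). For comparison, 6.0% of all genes rose and 6.86% fell, or 2.06% and 2.23% alone. Col8a1 fell by 0.86 ± 0.05 and Col12a1 by 0.73 ± 0.10.

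Of 14 osteoblast transcription factor genes 3 rose and 0 fell on day 6, in both fits. The share of all genes that rose was 6.0%, or 2.06% in the fit of day 6 alone. Sp7, osterix, stood at 559 CPM with GSK126 and 513 CPM without it at 50 ng/ml, against 378 and 225 CPM at 10 ng/ml (0.88 ± 0.15, adjusted p = 0.0283). Msx2, given above with the BMP-SMAD targets, is also on this list. Runx2, the lineage's first master regulator, stood at 429 CPM with GSK126 and 492 CPM without it at 50 ng/ml, against 374 and 342 CPM at 10 ng/ml, and did not pass (0.37 ± 0.09, adjusted p = 0.06). Nor did Dlx5 (0.43 ± 0.13, adjusted p = 0.0919).

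**Figure D2:**
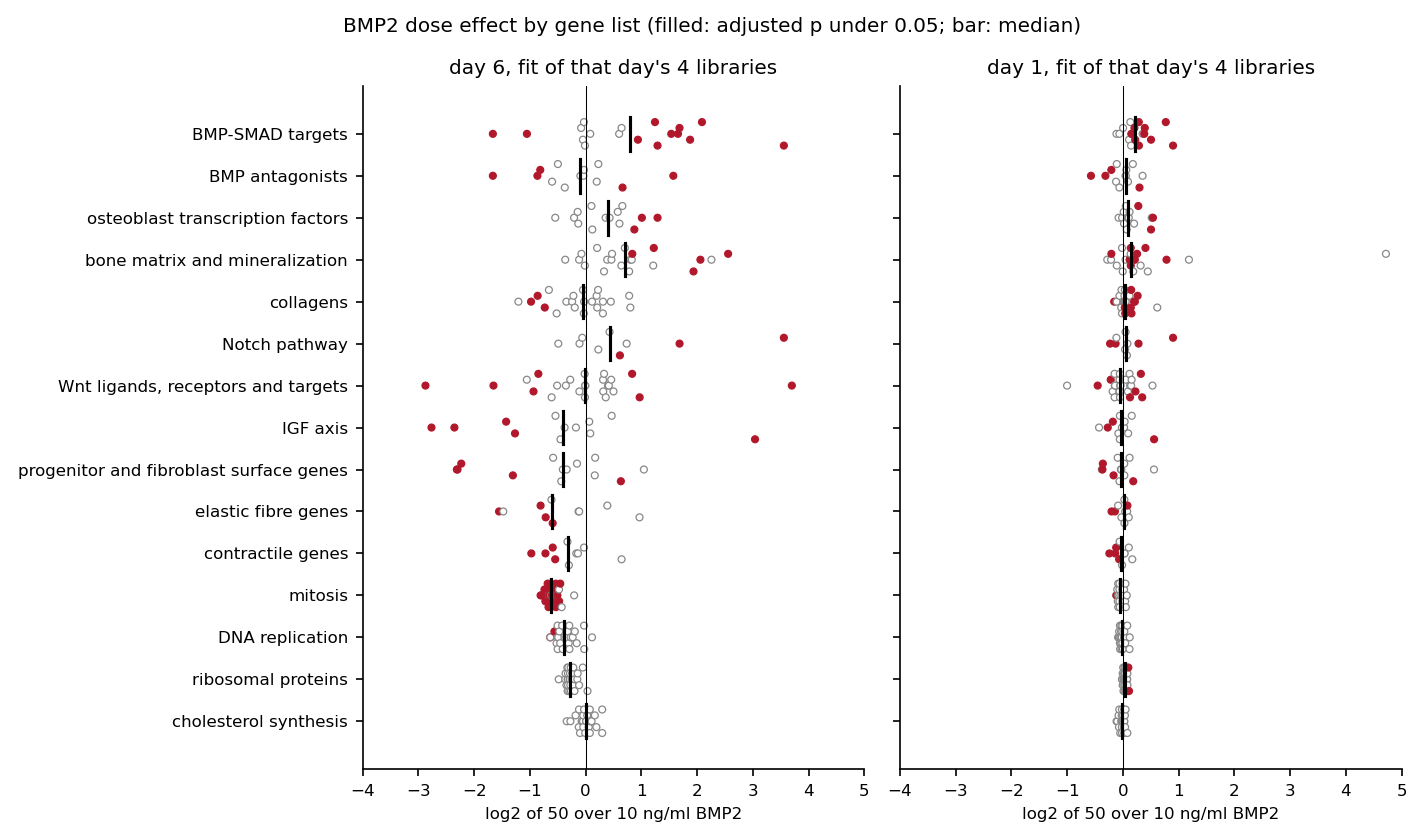
Log2 of 50 over 10 ng/ml BMP2 for the tested members of 15 gene lists (rows) on day 6 (left) and day 1 (right), each from the fit of that day's 4 libraries. Filled points passed an adjusted p of 0.05, open points did not and black bars are medians, at 0.79 on day 6 and 0.21 on day 1 for BMP-SMAD targets and at -0.62 on day 6 and -0.05 on day 1 for mitosis genes.

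Cell division genes fell with dose on day 6 as a group. All 25 tested mitosis genes had negative values, with a median of -0.61, and 24 fell in the fit of 8 libraries and 19 in the fit of day 6 alone. Aurkb, a mitotic kinase gene, stood at 5.82 CPM with GSK126 and 12.5 CPM without it at 50 ng/ml, against 9.92 and 22.3 CPM at 10 ng/ml (-0.80 ± 0.06, adjusted p = 0.00631). Kif20a, a cytokinesis motor gene, stood at 13.8 CPM with GSK126 and 30.4 CPM without it at 50 ng/ml, against 23.6 and 49.5 CPM at 10 ng/ml (-0.73 ± 0.05). Mki67, the Ki-67 proliferation marker gene, fell by 0.50 ± 0.05 (adjusted p = 0.00865, and 0.0486 alone). Levels at 50 ng/ml were below those at 10 ng/ml within each pair for all 25. Among 25 DNA replication genes 11 fell and 0 rose (median -0.37), or 2 and 0 in the fit of day 6 alone, Mcm6, a replicative helicase subunit gene, by 0.55 ± 0.07. Among 30 ribosomal protein genes 12 fell and 0 rose (median -0.27), Rps18 by 0.36 ± 0.06, but 0 passed in the fit of day 6 alone. The Rn45s share was higher at 50 ng/ml in the pair without GSK126 and lower in the pair with it, and its part in this result was not tested. In the pair with GSK126 the ribosomal median was -0.34, against -0.20 in the pair without it.

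Genes of the insulin-like growth factor axis were among the largest changes. Of 12 tested, 2 rose and 6 fell on day 6, or 1 and 4 in the fit of day 6 alone. Igf1 (chr10:87859056-87937047 in mm10), a growth factor gene of osteoblasts, stood at 2.84 CPM with GSK126 and 3.42 CPM without it at 50 ng/ml, against 17.2 and 26.1 CPM at 10 ng/ml (-2.76 ± 0.11, adjusted p = 0.00321). Igfbp5, which encodes a binding protein stored in bone matrix, stood at 178 CPM with GSK126 and 97.3 CPM without it at 50 ng/ml, against 18.29 and 14.03 CPM at 10 ng/ml (3.05 ± 0.13). The doses did not overlap for either gene. Pappa, whose product cleaves IGF binding proteins, fell (-1.42 ± 0.09), as did the binding protein genes Igfbp2 (-2.34 ± 0.30) and Igfbp4 (-1.26 ± 0.24). Igf1r, the receptor gene, rose by 0.47 ± 0.09 but not in the fit of day 6 alone (adjusted p = 0.0897).

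Surface genes of mesenchymal progenitors and fibroblasts went down for 4 of 13 members and up for 1, in both fits. Among all genes 6.86% fell and 6.0% rose, or 2.23% and 2.06% in the fit of day 6 alone. Cd34 stood at 2.58 CPM with GSK126 and 5.20 CPM without it at 50 ng/ml, against 11.5 and 28.4 CPM at 10 ng/ml (-2.31 ± 0.09). Nt5e, the gene of the ectonucleotidase CD73, stood at 21.2 CPM with GSK126 and 15.1 CPM without it at 50 ng/ml, against 105 and 67.0 CPM at 10 ng/ml (-2.23 ± 0.08). Both had all 4 values ordered by dose. The integrin gene Itga8 fell by 2.29 ± 0.37 and the adhesion molecule gene Vcam1 by 1.30 ± 0.09, while Pdgfra, the PDGF receptor alpha gene, rose by 0.64 ± 0.05. Other large falls were the orphan receptor gene Mrgprf, at 0.68 CPM with GSK126 and 2.58 CPM without it at 50 ng/ml, against 5.48 and 35.8 CPM at 10 ng/ml, and Gfra2, a GDNF family co-receptor gene, at 1.36 CPM with GSK126 and 1.57 CPM without it at 50 ng/ml, against 8.11 and 26.6 CPM at 10 ng/ml. Enpp2, the gene of autotaxin, fell (-3.07 ± 0.25), and so did Pxdn, the peroxidasin gene of basement membranes (-2.45 ± 0.20). The integrin-like gene Itgbl1 was counted in 1 read pair with GSK126 and 4 without it at 50 ng/ml, against 327 and 275 at 10 ng/ml.

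Of 10 contractile genes of smooth muscle and myofibroblasts 5 fell and 1 rose (4 and 0 alone), with Acta2, smooth muscle actin, at 184 CPM with GSK126 and 538 CPM without it at 50 ng/ml, against 368 and 1032 CPM at 10 ng/ml (-0.97 ± 0.06). Of 10 elastic fibre genes 5 fell and 2 rose (4 and 0 alone), with the fibrillin gene Fbn2 at -1.55 ± 0.13 and Fbln5, fibulin 5, at -0.80 ± 0.13. Among 10 small leucine-rich proteoglycan genes 3 rose and 3 fell (1 and 3 alone). As above, 6.0% of all genes rose and 6.86% fell, or 2.06% and 2.23% alone. Dcn, decorin, which binds collagen fibrils, stood at 1161 CPM with GSK126 and 1981 CPM without it at 50 ng/ml, against 329 and 371 CPM at 10 ng/ml (2.12 ± 0.15). Podn, podocan, fell by 1.86 ± 0.14.

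Wnt genes went both ways. Of 25 tested ligands, receptors and targets 5 rose and 6 fell on day 6, or 3 and 4 in the fit of day 6 alone, with a median of -0.01 in the second of these fits. The shares over all genes were 6.0% higher and 6.86% lower, or 2.06% and 2.23% alone. Lgr6 (chr1:134986353-135105276 in mm10), a receptor gene for R-spondins, which amplify Wnt signalling, was counted in 1248 read pairs with GSK126 and 64 without it at 50 ng/ml, against 123 and 4 at 10 ng/ml (3.65 ± 0.12, adjusted p = 0.00321). Wnt4 rose by 0.97 ± 0.09. Axin2 and Nkd2, which are feedback targets of the β-catenin pathway, fell (-0.93 ± 0.09 for Axin2 and -2.86 ± 0.17 for Nkd2). Of 10 Wnt inhibitor genes 0 rose and 2 fell, Dkk2 (-3.42 ± 0.51) and Sfrp2 (-0.57 ± 0.05). Of 9 Notch pathway genes 4 rose and 0 fell (3 and 0 alone). Apart from Hey1 these were Hes1, another Notch effector (1.67 ± 0.20), Lfng, a Notch glycosyltransferase gene (0.62 ± 0.07), and Notch2 (0.23 ± 0.05), the last of them not in the fit of day 6 alone.

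Among signalling genes, Ptgs2, the inducible prostaglandin synthase gene, stood at 63.4 CPM with GSK126 and 43.7 CPM without it at 50 ng/ml, against 25.3 and 11.9 CPM at 10 ng/ml (1.60 ± 0.14). Of 9 prostaglandin pathway genes 3 rose and 1 fell (2 and 1 alone), the one that fell being the constitutive synthase gene Ptgs1 (-0.81 ± 0.13). Of 17 TGF-beta pathway genes 5 rose and 3 fell (4 and 1 alone), with Ltbp2, a latent TGF-beta binding protein gene, at 1.29 ± 0.11, Skil, a SMAD corepressor gene, at 0.93 ± 0.05, and the receptor gene Tgfbr2 at -0.84 ± 0.15. Of 15 interferon-stimulated genes 3 fell and 0 rose (0 and 0 alone), and antigen presentation genes rose in 4 of 12 and fell in 3 (2 and 0 alone). Over all genes 6.0% rose and 6.86% fell, or 2.06% and 2.23% alone.

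Over the same dose step genes moved much more on day 6 than on day 1. The SD of the log2 change over the 11876 genes was 0.39 in the pair with GSK126 and 0.52 in the pair without it on day 6, against 0.20 with GSK126 and 0.23 without it on day 1. The fit of 8 libraries called 0 genes (0.0%) with edgeR, with 553 at an unadjusted p under 0.05 where 5% of the genes is 594. DESeq2 called 21, limma-voom 0, and limma-voom with 1 weight per day 71. Other scalings, other filters and the fit of all 12 libraries gave 0 with edgeR. A fit of the 4 libraries of day 1 alone (1 residual degree of freedom) called 822 genes (6.92%), 467 higher at 50 ng/ml (3.93%) and 355 lower (2.99%), with a median size of 0.18 on the log2 scale and 8 of at least 2-fold. Leaving out any 1 library of day 6 gave 796 to 932 calls in the fit of the rest, and leaving out any 1 of day 1 gave 0 to 3. The day 1 results that follow come from the fit of day 1 alone, used here because the fit of 8 libraries called 0 genes. Its calls and adjusted p-values are thus those of a fit chosen after the outcome, and are descriptive. The genes named for day 1 were chosen after their values were seen.

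In that fit 10 of the 18 BMP-SMAD targets rose and 0 fell (median 0.21, against -0.002 over all genes). Hey1 stood at 3.97 CPM with GSK126 and 3.58 CPM without it at 50 ng/ml, against 2.44 and 1.62 CPM at 10 ng/ml (0.90 ± 0.16, adjusted p = 0.00957). Bambi stood at 15.5 CPM with GSK126 and 13.6 CPM without it at 50 ng/ml, against 9.55 and 7.55 CPM at 10 ng/ml (0.77 ± 0.07, adjusted p = 0.000336). Id1 stood at 29.7 CPM with GSK126 and 30.9 CPM without it at 50 ng/ml, against 27.5 and 24.4 CPM at 10 ng/ml (0.22 ± 0.06, adjusted p = 0.0469). The doses did not overlap for these 3 genes. Smad6 (0.39 ± 0.07), Msx2 (0.50 ± 0.08), Atoh8 (0.38 ± 0.04), Smad7 (0.29 ± 0.04), Id2 (0.28 ± 0.03), Smad9 (0.21 ± 0.04) and Id3 (0.15 ± 0.04) also passed. Among 13 antagonists 1 rose and 3 fell, where 3.93% of all genes rose and 2.99% fell in that fit. Chrdl1, chordin-like 1, fell by 0.57 ± 0.03, and Chrd and Fst fell too.

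In the fit of day 1 alone, early bone genes rose by small amounts. The bone matrix and mineralization list had 7 members of 21 higher and 1 lower (median 0.14), where 3.93% of all genes rose and 2.99% fell. Alpl stood at 4.65 CPM with GSK126 and 3.84 CPM without it at 50 ng/ml, against 2.80 and 2.14 CPM at 10 ng/ml (0.78 ± 0.13, adjusted p = 0.00837). Sp7 stood at 234 CPM with GSK126 and 231 CPM without it at 50 ng/ml, against 166 and 154 CPM at 10 ng/ml (0.54 ± 0.03). Ibsp rose by 0.40 ± 0.04 and Col1a1 by 0.21 on the log2 scale. Spp1 is the one that fell, by 0.21 on the log2 scale. Of 22 collagen genes 9 rose and 1 fell, with a median of only 0.04. Col12a1, among the 9, rose by 0.034 on the log2 scale and was lower at 50 ng/ml on day 6. Tnn, tenascin N, a matrix glycoprotein gene of bone-forming regions, stood at 225 CPM with GSK126 and 248 CPM without it at 50 ng/ml, against 106 and 112 CPM at 10 ng/ml (1.12 ± 0.03). Wif1, a secreted Wnt inhibitor gene, stood at 4.84 CPM with GSK126 and 3.34 CPM without it at 50 ng/ml, against 1.33 and 0.87 CPM at 10 ng/ml (1.89 ± 0.15, adjusted p = 0.000148). Rgs4, a regulator of G protein signalling, rose by 0.68 ± 0.03. Of the 25 mitosis genes 0 rose and 1 fell (median -0.05), and of 25 DNA replication genes 0 passed (median -0.02).

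**Figure D3:**
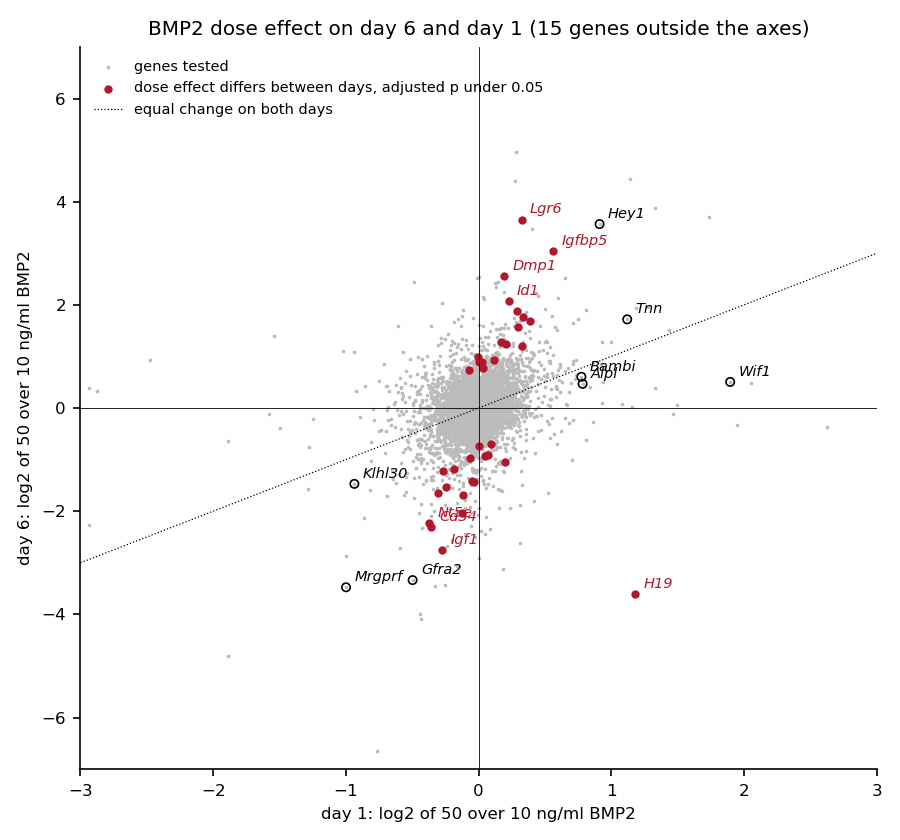
Log2 of 50 over 10 ng/ml BMP2 on day 6 (vertical) against day 1 (horizontal) for 11876 genes in the fit of 8 libraries, with the 35 genes whose dose effect differed between days in red and other named genes ringed. All 35 red genes lie further from 0 on day 6 than on day 1, and 15 genes lie outside the axes.

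Whether the dose effect differed between days was tested directly. It did for 35 genes (0.295%), 17 with a more positive value on day 6 (0.143%) and 18 with a more negative one (0.152%). Lgr6 led the positive ones named here, at 3.65 on day 6 and 0.32 on day 1, a difference of 3.33 ± 0.14 (adjusted p = 0.0264). On day 1 Lgr6 stood at 146 CPM with GSK126 and 136 CPM without it at 50 ng/ml, against 121 and 105 CPM at 10 ng/ml. Thus it was high at both doses on day 1, and on day 6 it was lower and ordered by dose only within each pair. The day 6 library at 50 ng/ml without GSK126 lay below that at 10 ng/ml with it. Igfbp5 (2.48 ± 0.17), Dmp1 (2.37 ± 0.15), Id1 (1.85 ± 0.15), Id2 (1.59 ± 0.12), Olfml2b (1.44 ± 0.07) and Atoh8 (1.30 ± 0.11) were among the others, and Smad9 and Skil passed with 1.04 ± 0.09 and 0.81 ± 0.07. Of the 18 BMP-SMAD targets 4 passed here, all 4 more positive on day 6.

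Genes named by size had a mean CPM of at least 5 and 1 direction in every pair. Among them the more negative differences were led by Igf1 (-2.49 ± 0.14), Cd34 (-1.95 ± 0.11), Aff3 (-1.91 ± 0.12), Nt5e (-1.85 ± 0.12), Ptn (-1.57 ± 0.11), Sod3 (-1.40 ± 0.10), Pappa (-1.37 ± 0.12) and Mest (-1.34 ± 0.13). Ptn encodes the growth factor pleiotrophin, Sod3 the extracellular superoxide dismutase and Mest an imprinted gene of mesoderm. On day 1 Igf1 stood at 43.3 CPM with GSK126 and 34.7 CPM without it at 50 ng/ml, against 49.2 and 44.8 CPM at 10 ng/ml, a much smaller gap than on day 6. H19, an imprinted non-coding RNA gene, had 13 read pairs with GSK126 and 5 without it at 50 ng/ml on day 6, against 224 and 51 at 10 ng/ml, and stood at 0.08 to 0.32 CPM in the 4 libraries of day 1. Its difference of -4.79 was larger in size than that of Igf1, but H19 did not meet the rule for naming by size. Acta2 (-0.90 ± 0.08) and Kif20a (-0.73 ± 0.07) passed too. All 35 genes had the larger absolute value on day 6, and Wif1, with the larger one on day 1 (-1.39 ± 0.28, adjusted p = 0.103), did not pass. The number was 4 without any 1 library of day 1, 2891 to 3891 without any 1 of day 6, 576 with DESeq2 and 294 with 1 weight per day.

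Over both days 618 genes (5.2%) passed for the mean of the day 6 and day 1 effects, 295 higher at 50 ng/ml (2.48%) and 323 lower (2.72%). Tnn (1.42 ± 0.09), Hey1 (2.24 ± 0.14), Cd244 (1.37 ± 0.10) and Creb3l3 (1.14 ± 0.18) rose, and Igf1 (-1.52 ± 0.07), Klhl30 (-1.20 ± 0.07) and Nov, the matricellular gene also called Ccn3 (-1.16 ± 0.10), fell. Klhl30 stood at 19.1 CPM with GSK126 and 13.9 CPM without it at 50 ng/ml on day 6, against 50.0 and 41.2 CPM at 10 ng/ml, and at 0.72 and 0.50 CPM at 50 ng/ml on day 1, against 1.34 and 0.98 CPM at 10 ng/ml. In the fits of each day alone 169 genes passed on both days, 33.1% of those called on day 6 and 20.6% of those called on day 1. Of these 159 went the same way (101 higher, 58 lower) and 10 opposite ways, Spp1 among them. Without any 1 library of day 1 the count over both days was 18 to 26, without any 1 of day 6 it was 3650 to 4542, and with 1 dose term for both days it was 0.

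**Figure D4:**
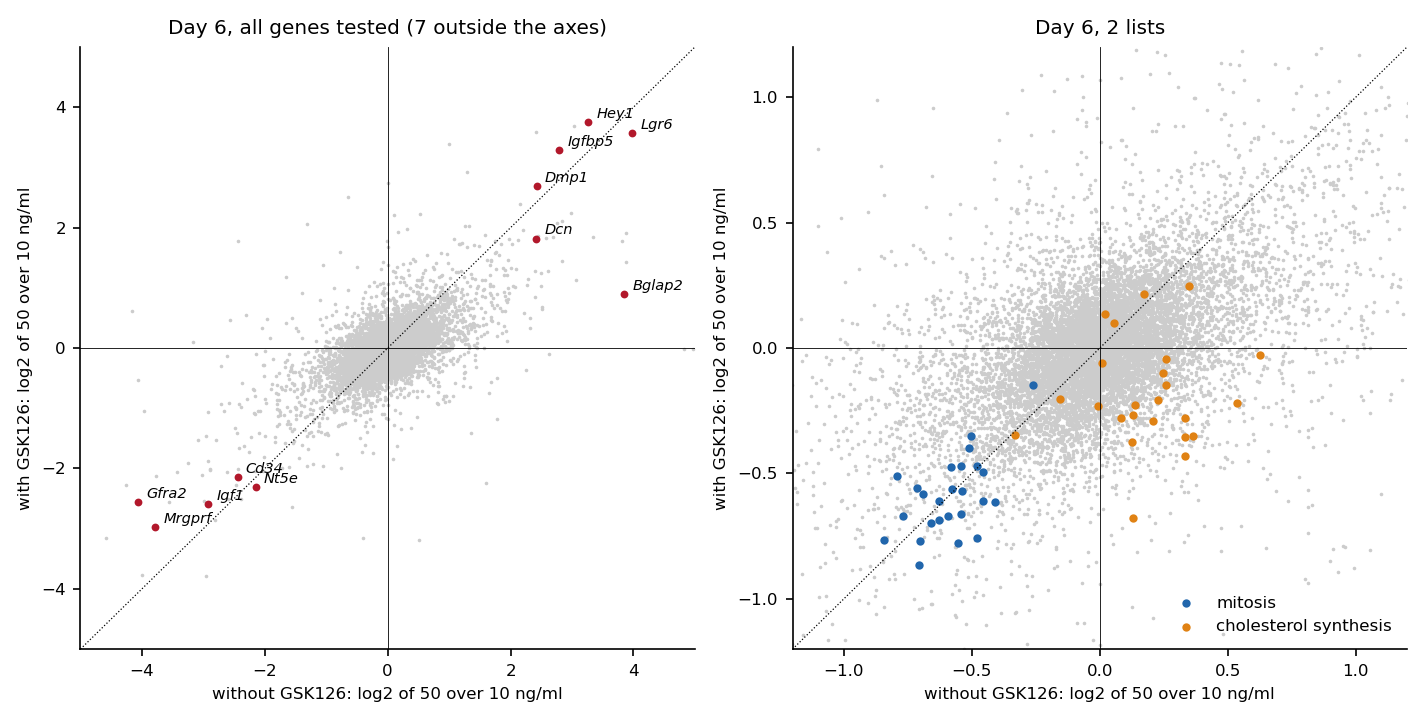
Log2 of 50 over 10 ng/ml BMP2 on day 6 in the pair with GSK126 (vertical) against the pair without it (horizontal), for all 11876 genes (left, 7 outside the axes) and, enlarged, for mitosis and cholesterol synthesis genes (right). Mitosis genes lie below 0 in both pairs, and most cholesterol synthesis genes lie below 0 with GSK126 and above 0 without it.

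The dose effect with GSK126 was set against the dose effect without it. Across the 11876 genes the log2 changes of the 2 pairs of day 6 had a Pearson correlation of 0.6, given as a description since genes are not independent replicates, and 188 of the 195 genes that changed at least 2-fold in both went the same way. The correlation of the 2 day 1 pairs was 0.169. With a term for GSK126, whose fit leaves 1 residual degree of freedom, 2 genes (0.0168%) passed, 1 with a more positive effect with GSK126 (0.00842%) and 1 with a more negative one (0.00842%). Bglap2, another osteocalcin gene, stood at 144 CPM at 50 ng/ml against 77.0 CPM at 10 ng/ml with GSK126, and at 45.0 CPM at 50 ng/ml against 3.10 CPM at 10 ng/ml without it, on day 6 (difference -2.90 ± 0.22, adjusted p = 0.0456). Its day 1 libraries, which also enter that term, stood at 0.04 to 0.08 CPM, and reads may be split among the osteocalcin copies. The second, Accn1, rests on 1 library. It had 5293 read pairs at 50 ng/ml against 5632 at 10 ng/ml with GSK126 on day 6, 0 at 50 ng/ml against 5277 at 10 ng/ml without it, and 0 in every library of day 1. The count was 93 with scaling by library size alone, 1 with relative log expression size factors, 12 without the filter on low counts, 3 with DESeq2 and 0 with limma-voom. For this term 319 genes had an unadjusted p under 0.05 in the fit of 8 libraries, where 5% of the genes is 594.

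Some lists differed in sign between the day 6 pairs, untested. Of 24 cholesterol synthesis genes 4 were higher at 50 ng/ml with GSK126 (median -0.22) and 21 without it (median 0.19). Idi1, an early enzyme gene of that pathway, stood at 32.9 CPM at 50 ng/ml against 44.3 CPM at 10 ng/ml with GSK126, and at 102 CPM at 50 ng/ml against 80.9 CPM at 10 ng/ml without it. Their mean effect was near 0, with 1 gene higher (Insig1, 0.30 ± 0.05) and 1 lower (Ebp, -0.33 ± 0.05). Chaperone genes of the endoplasmic reticulum showed the same split, with 5 of 17 higher with GSK126 (median -0.13) and 14 without it (median 0.16). Mitosis genes showed none, with 0 of 25 higher in either pair and medians of -0.61 with GSK126 and -0.58 without it.

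Markers of other cell types were read as sums. The summed level of 10 endothelial marker genes on day 6 was 13.6 CPM with GSK126 and 3.67 CPM without it at 50 ng/ml, against 8.16 and 2.59 CPM at 10 ng/ml, with 4 to 7 of them at 0. Vwf was the 1 tested and rose (0.84 ± 0.12). Of 12 epithelial genes Krt14 was the 1 tested and rose (1.54 ± 0.14), at 4.65 CPM with GSK126 and 4.62 CPM without it at 50 ng/ml, against 1.85 and 1.34 CPM at 10 ng/ml. Summed haematopoietic markers stood at 12.6 CPM with GSK126 and 8.40 CPM without it at 50 ng/ml, against 15.9 and 9.51 CPM at 10 ng/ml on day 6. Summed skeletal muscle markers were at most 1.46 CPM in the 4 day 6 libraries with BMP2. Neural and cartilage markers were not near 0: summed neural markers stood at 63.4 CPM with GSK126 and 106 CPM without it at 50 ng/ml, against 76.0 and 96.4 CPM at 10 ng/ml, and summed cartilage genes at 1162 CPM with GSK126 and 396 CPM without it at 50 ng/ml, against 709 and 181 CPM at 10 ng/ml. Of 8 tested cartilage genes Col2a1 rose (1.41 ± 0.23) and Sox6 fell (-0.39 ± 0.08, not in the fit of day 6 alone), and of 5 adipocyte genes 0 passed on day 6. Col2a1 also rose in the fit of day 1 alone (0.18). Its mean over the 8 libraries of both days was 2139 CPM, above each of these day 6 cartilage sums. The tested cartilage genes differed in sign between the day 6 pairs, unlike their sum. At 50 ng/ml 2 of the 8 were higher with GSK126 (median -0.28) and 6 without it (median 1.11). Cd244, the gene of a receptor known from natural killer cells, rose, at 56.9 CPM with GSK126 and 35.6 CPM without it at 50 ng/ml, against 15.7 and 6.50 CPM at 10 ng/ml (2.14 ± 0.15). The part of other cells in these results was not tested.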

How the data were processed

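RNA-seq of 12 libraries was deposited by the authors as 1 table of read counts per gene, with RPKM values beside them, and coordinates on mm10. The submitters' processing notes name bcl2fastq, TopHat2 2.0.6 and HTSeq. All 195176 counts above 0 are even, so a count is taken as a mate and a read pair as 2 counts. The deposited RPKM values were used in no test. The 8 libraries with BMP2 were fitted with edgeR 4.0.16 (R 4.3.3, TMM, quasi-likelihood test, Benjamini-Hochberg adjustment), with a baseline for each day and GSK126 state and a dose term per day (6 coefficients, 2 residual degrees of freedom). A seventh term gave the difference by GSK126. Each day was also fitted alone. Most of the genes named come from a rule applied per contrast. It took the 8 called genes with the largest positive and the 8 with the largest negative change (mean CPM of at least 5, 1 direction in every pair). It also took no more than 4 called genes of each list, and a panel. Other genes were named outside that rule, among them Igfbp4, Igf1r, Axin2, Tgfbr2, Ank and Idi1 on day 6 and some of those named for day 1. A few named genes are left unreported. Members and lists were chosen with earlier results of these data known. Alternatives used limma 3.58.1 and DESeq2 1.42.0, other scalings, filters and library sets. The scripts were tested on simulated data. Depth was 40007953 to 56872401 read pairs. Of 23358 table rows 69 share a name. Promoter sequences are from RefSeq (GRCm38.p6).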

Additional observations from a re-analysis of the deposited data

Results flagged for a closer look

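The dose effect differed between days by edgeR's test of the difference itself in the genes below, given here as day 6 minus day 1 on the log2 scale. It was more positive on day 6 for Lgr6 (3.33), Igfbp5 (2.48), Dmp1 (2.37), Id1 (1.85), Id2 (1.59), Olfml2b (1.44), Atoh8 (1.30), Smad9 (1.04) and Skil (0.81). It was more negative for H19 (-4.79), Igf1 (-2.49), Cd34 (-1.95), Aff3 (-1.91), Nt5e (-1.85), Ptn (-1.57), Sod3 (-1.40), Pappa (-1.37), Mest (-1.34), Acta2 (-0.90) and Kif20a (-0.73). The value of H19 rests in part on day 1 libraries with very few reads. In the fit with a term for GSK126, the dose effect also differed between libraries with and without GSK126 for Bglap2 (-2.90) and Accn1. That fit leaves 1 residual degree of freedom, and Bglap2 lay near the level of 3 read pairs on day 1. The value of Accn1 (15.47) is fitted against 0 read pairs in a single library and is no bound.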

How the results depend on the processing

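With 2 residual degrees of freedom the counts of calls depended on how the spread was estimated. On day 6 the 1527 calls became 2508 with library size alone, 845 with 1 voom weight per day, 510 with day 6 alone, and 454 to 5049 without 1 library. On day 1 the 0 calls became 21 with DESeq2, 71 with weights, 822 alone, and 0 to 932 without 1 library. Over both days the 618 became 1008 with library size, 1114 with DESeq2, 988 with weights, 0 with 1 dose term, and 18 to 4542 without 1 library. For the difference between days the 35 became 111 with library size, 179 without the filter, 576 with DESeq2, 20 with voom, 294 with weights, 115 with 12 libraries, and 4 to 3891 without 1 library. For the difference by GSK126 the 2 became 1 with relative log expression, 93 with library size, 12 without the filter and 0 with voom. Direction was checked for 139 genes on day 6, mostly called genes and panel members, and reversed for 3 of them. Nog (0.03) was -0.11 with library size, -0.21 with DESeq2, -0.029 alone, and -1.70 to 1.19 without 1 library. Phospho1 (0.48) was -0.18 to 1.147 and Smpd3 (0.34) -0.28 to 0.96 without 1 library, negative without either day 6 library lacking GSK126. The cause was not tested. No paired analysis was possible because the labels give no replicate numbers to add as a block. The pairs of the report are doses matched by day and GSK126, and the fit already holds them. The weights were not run for the difference by GSK126.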

Other observations

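Several genes outside the lists passed on both days when each day was fitted alone, and were chosen after their values were seen. Adam12, a metalloprotease gene, rose by 1.87 on day 6 and 0.36 on day 1 on the log2 scale. Vegfa, the angiogenic growth factor gene, rose by 1.55 on day 6 and 0.19 on day 1. Fgfr3, an FGF receptor gene of the growth plate, rose by 1.28 on day 6 and 0.52 on day 1, and the homeobox gene Dlx2 by 1.48 on day 6 and 0.37 on day 1. Mgp, matrix Gla protein, an inhibitor of mineralization, had log2 changes of -1.24 on day 6 and -0.24 on day 1, and the membrane protease gene Mme of -1.63 on day 6 and -0.55 on day 1, all lower at 50 ng/ml.

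Accn1 was counted in 0, 5632 and 5293 read pairs at 0, 10 and 50 ng/ml BMP2 with GSK126 on day 6, and in 2278, 5277 and 0 without it. Some genes had most of their reads in 1 or 2 libraries. Ephx4 had 1533 read pairs at 50 ng/ml with GSK126 on day 1 and 2231 at 10 ng/ml with GSK126 on day 6, and at most 9 in the other libraries. Fam132a had 41015 read pairs at 10 ng/ml without GSK126 on day 1, against 634 to 1035 elsewhere, and Gm11517 had 5403 in the same library, against 34 to 55.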
